A study of Mus musculus with 12 samples.

Results

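In mouse embryonic stem (ES) cells differentiated towards cardiomyocytes, 93 genes had a high signal in the undifferentiated cells. These genes had a low signal in the aggregates of day 7, and at day 14 were again near the level of the start or above it. They are 93 of the 14847 genes that have a transcript cluster with a single symbol. The members were chosen by their own values. The mean log2 signal had to be at least 8 at day 0, the day 7 mean at least 1.5 below both other stages, the day 14 mean less than 1 below day 0, and both day 7 samples below all others. The rule leaves out 22 well-known genes, most of them of the pluripotency network and the germ line. Of 5192 rows at or above 8 at day 0, 322 were lower by 1.5 or more at day 7. In 129 of these day 14 was higher than day 7 by 1.5 or more, and in 103 day 14 was also less than 1 below day 0. In all 103 the day 7 samples lay below the others, and 10 of the 103 are genes the rule leaves out. The steps that define the 93 genes are therefore given as a description, and their tests support nothing.

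RNA was measured with the Affymetrix exon array of the mouse (Mouse Exon 1.0 ST), on which a gene has probe sets in most of its exons, to look at expression and splicing as cardiomyocytes form. There are 2 samples each of undifferentiated ES cells (day 0), of embryonic bodies, the aggregates they form (day 7), and of cardiac bodies (day 14). All 3 stages come from mouse ES cells, the differentiation medium was based on DMEM with 10% serum, and no treatment or altered gene is given. The labels name neither the ES cell line nor a separate culture for each replicate, so p-values cover only the variation among these samples, and that may be technical. Each value comes from a mixed culture, in which fewer cells of a type and less RNA per cell cannot be told apart.

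Pluripotent ES cells are held in their state by a network of transcription factors that bind one another's genes, above all Pou5f1, Sox2 and Nanog. Many other genes are active with this network, among them growth factors of the early embryo, genes of germ cells and oocytes, and surface proteins and enzymes that serve as ES cell markers. Most of them are known to be shut down as ES cells form the germ layers. Cardiac bodies are aggregates in which beating heart muscle cells arise beside other cells.

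The stage labels were set against marker genes. The median of 21 measured sarcomere genes was 5.41 and 5.40 at day 0, 5.60 and 5.94 at day 7, and 10.88 and 10.61 at day 14 (log2 signal). The median of the 22 left-out genes was 10.59 and 10.38 at day 0, 6.92 and 7.00 at day 7, and 9.27 and 10.04 at day 14. Both the heart muscle genes and the ES cell genes were thus high in the cardiac bodies. The median gap between the day 14 samples over the left-out genes, replicate 2 less replicate 1, was 0.186. The part of such cells in the values of the 93 genes was not tested. No member is on the lists of sarcomere genes (21 measured) or heart transcription factors (26 measured). The median of the heart transcription factors was 6.39 and 6.38 at day 0. The rule asks for a day 0 mean of at least 8, above the day 0 medians of both lists, so nothing is read from this absence.

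Promoter sequences are shown for 4 genes of the group with a motif in the window, from RefSeq on GRCm38.p6. The first pair holds the octamer that POU factors such as the product of Pou5f1 bind. The second pair are germ cell genes with an E-box, the site of basic helix-loop-helix factors. Each is the 250 bases before the gene's start, read 5′ to 3′ on the gene's strand, with the motifs named after them in capitals.
H2ac1 (chr13:23934187-23934436, plus strand): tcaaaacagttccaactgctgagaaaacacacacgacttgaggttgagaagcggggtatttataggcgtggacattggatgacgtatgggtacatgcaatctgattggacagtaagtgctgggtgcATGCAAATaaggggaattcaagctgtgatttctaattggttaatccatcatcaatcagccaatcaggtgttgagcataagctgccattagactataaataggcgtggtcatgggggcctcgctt
Zfp296 (chr7:19577037-19577286, plus strand): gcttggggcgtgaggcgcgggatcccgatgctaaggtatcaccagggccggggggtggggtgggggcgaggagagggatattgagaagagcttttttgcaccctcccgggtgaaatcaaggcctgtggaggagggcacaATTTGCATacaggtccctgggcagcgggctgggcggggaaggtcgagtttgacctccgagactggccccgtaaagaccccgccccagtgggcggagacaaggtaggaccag
Mael (chr1:166238745-166238994, minus strand): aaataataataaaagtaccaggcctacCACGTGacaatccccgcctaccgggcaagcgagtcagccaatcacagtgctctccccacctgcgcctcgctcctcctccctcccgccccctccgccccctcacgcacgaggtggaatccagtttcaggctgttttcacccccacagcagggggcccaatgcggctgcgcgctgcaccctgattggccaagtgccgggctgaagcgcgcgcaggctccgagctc
Ddx4 (chr13:112652311-112652560, minus strand): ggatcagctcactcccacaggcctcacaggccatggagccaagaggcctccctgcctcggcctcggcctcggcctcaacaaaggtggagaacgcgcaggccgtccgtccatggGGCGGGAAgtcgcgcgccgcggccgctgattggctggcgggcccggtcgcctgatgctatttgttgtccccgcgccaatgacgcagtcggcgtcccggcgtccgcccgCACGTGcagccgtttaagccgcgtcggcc
In H2ac1, which encodes a histone H2A, the octamer ATGCAAAT starts 124 bases before the gene's start. In Zfp296, a zinc finger gene of ES cells, it starts 111 bases before and lies on the other strand. The E-box CACGTG of Mael starts 223 bases before its start, and that of Ddx4 29 bases before. Ddx4 also holds GGCGGGAA, the letters of an E2F site, 137 bases before its start.

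These letters were searched on both strands in 300 bases (250 before and 50 after the start), of which the table holds 109 windows for 77 members and 14938 for all genes. The octamer was in 5 windows of members, or 4.59%, against 1.61% of all windows. Besides H2ac1 and Zfp296 these were Chchd10, Clca3b and Pipox. CACGTG was in 11 windows (10.1% against 8.62%), and its longer form TCACGTGA, which contains it, in none (1.44% of all). The windows of Sohlh2 and Ooep, the other members known from germ cells or oocytes, held no CACGTG. Members of other roles did hold it, such as Cd37, Derl3 and Jade1. GGCGGGAA was in 4 (3.67% against 3.04%), GGGCGGGG, the letters of an Sp1 site, in 32 (29.4% against 26.8%), and CCAAT in 33 (30.3% against 37.5%). AGATAA, the core of a GATA site, was in 8 (7.34% against 8.86%) and TGACGTCA, a cyclic AMP response element, in 3 (2.75% against 2.36%). TTCCNGGAA, a STAT site, was in 1, that of Lrrc2 (0.917% against 1.14%), and CAAGGTCA, a site of some nuclear receptors, in none (1.12% of all). The median GC content was 60.7% in the windows of members and 58.3% in all. A match is a run of letters, and nothing here shows a factor bound to it.

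Over the 93 genes, the fall from day 0 to day 7 had a median of 2.47 (log2; lowest 1.501, highest 4.75) and the rise from day 7 to day 14 a median of 1.98 (1.501 to 5.29). The median of the members was 9.06 and 9.37 in the day 0 samples, 6.86 and 6.77 in the day 7 samples, and 8.79 and 9.07 in the day 14 samples. The median over all clusters stayed between 6.47 and 6.79. The fall was 2 or more in 70 genes and 3 or more in 18, and both steps reached 2 in 38. The rise made up between 61.2% and 194% of the fall, with a median of 82.4%. At day 7 the mean was still 8 or more in 23 genes and under 6 in 21.

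**Figure D1:**
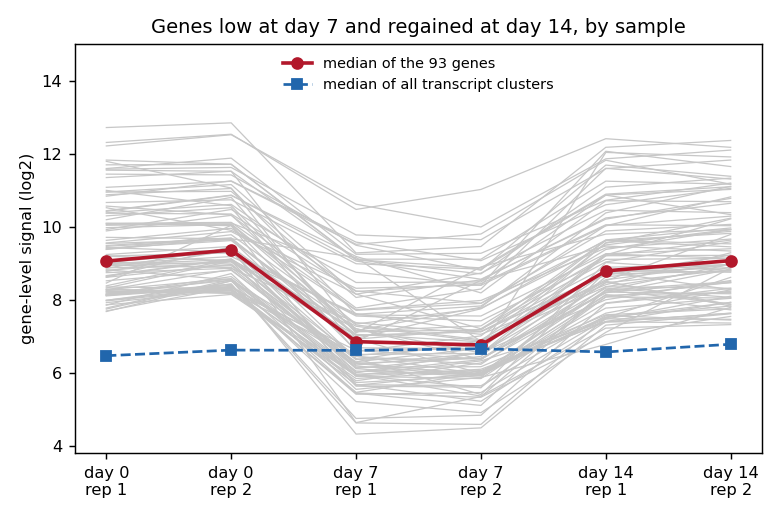
Gene-level log2 signal of the 93 genes in each of the 6 samples. Grey lines are single genes, the red line is their median in each sample and the blue dashed line the median of all transcript clusters. The red line drops from 9.06 and 9.37 to 6.86 and 6.77 and returns to 8.79 and 9.07, while the blue line stays between 6.47 and 6.79.

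A limma fit over all clusters called 91 of the 93 genes lower at day 7 (adjusted p from 0.00265 to 0.0421), where 5.28% of all clusters were called lower and 5.35% higher. Day 14 against day 7 called 77 of the 93 higher (adjusted p from 0.00279 to 0.04995), against 2.11% higher and 1.02% lower over all clusters. Both day 7 samples lay below all others in 16.5% of all clusters. The rule used both contrasts, so nothing is read from these counts. Folr1 and Uchl1 were not called in either step. Another 14 genes were called in the fall but not in the rise, namely Ddx4, Clca3b, Pmepa1, Dapp1, Upp1, Foxd3, Rarg, Pml, Slc5a11, Nefh, Pecam1, Slc9b1, Ntn1 and Ncoa3. The counts were lower with a sample left out. Such a fit also has fewer degrees of freedom and takes the spread of the lone sample from the other stages. Why the counts were lower was not tested. Without day 0 replicate 2, 59 members were called lower at day 7. Without a day 7 or a day 14 sample, 20 to 28 were called higher at day 14 against day 7.

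**Figure D2:**
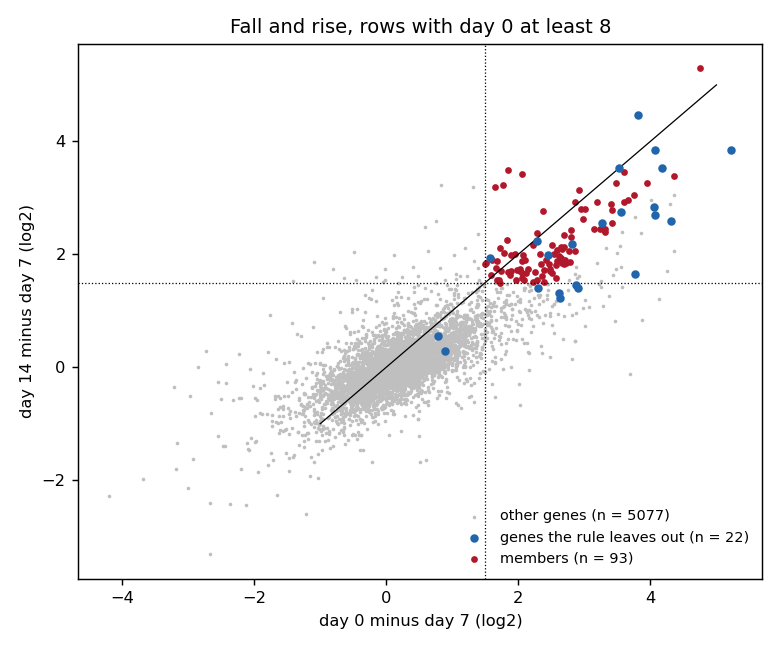
Day 0 minus day 7 (x axis) and day 14 minus day 7 (y axis), both as differences of stage means of the log2 signal, for 5192 rows with a day 0 mean of at least 8. Red points are the 93 members, blue points 22 rows of genes the rule leaves out and grey points the other 5077. Dotted lines mark the 1.5 of the rule and the solid line equal steps. Most members lie below the solid line, and the member farthest up, H2ac1, lies above it at 4.75 and 5.29.

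Among the genes of transcription and chromatin, the histone gene H2ac1 had the largest steps of all members. Its signal was 11.79 and 11.06 at day 0, 6.69 and 6.67 at day 7, and 12.03 and 11.91 at day 14. Both day 14 samples were above both day 0 samples, and the day 7 samples were 0.02 apart. The fall of 4.75 ± 0.27 (SE of the limma fit, n = 2 per stage) was a 26.8-fold loss of signal, and the rise of 5.29 a 39.2-fold gain. The exon-level table holds a single probe set for H2ac1, so its profile rests on few probes. H2bc1, a histone H2B gene next to it in the order of protein-coding genes, is no member because its day 0 mean is under 8, and its signal was 7.64 and 6.59 at day 0, 4.63 and 3.81 at day 7, and 7.40 and 7.86 at day 14.

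Utf1, a chromatin-bound factor used as a marker of undifferentiated ES cells, had 12.71 and 12.84 at day 0, 9.28 and 9.46 at day 7, and 12.17 and 12.36 at day 14. It fell by 3.41 ± 0.18 and rose by 2.90, and both day 14 samples were below both day 0 samples. Zfp296, whose octamer is shown above, had 9.46 and 9.65 at day 0, 6.39 and 5.41 at day 7, and 8.77 and 8.96 at day 14. Here the day 7 samples were 0.98 apart, less than their distance from the other stages. Mitf, the master regulator of melanocytes, had 8.87 and 9.43 at day 0, 6.12 and 6.45 at day 7, and 9.21 and 9.22 at day 14, so that day 14 lay within the day 0 samples.

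Foxd3, a forkhead factor needed for pluripotent cells and the neural crest, had 8.32 and 9.06 at day 0, 6.45 and 6.24 at day 7, and 8.48 and 7.87 at day 14, and its rise was not called (adjusted p = 0.0545). Mybl2, a MYB factor that drives genes of the cell cycle, had 11.55 and 11.52 at day 0, 9.10 and 8.87 at day 7, and 10.89 and 11.10 at day 14. Both its steps were called, and day 14 stayed below day 0 in both samples. Polycomb repressive complex 1 has the members Phc1 and Cbx7. The first had 11.57 and 11.62 at day 0, 9.78 and 9.65 at day 7, and 11.59 and 11.82 at day 14, and the chromodomain subunit, Cbx7, had 10.37 and 10.35 at day 0, 8.23 and 8.44 at day 7, and 10.05 and 10.03 at day 14. The day 14 samples of Phc1 overlapped those of day 0, whereas both of Cbx7 were below them.

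The other members of this kind are the zinc finger gene Zfp819, Jade1 (a subunit of a histone acetyltransferase complex), Aff1 (a scaffold of transcription elongation), Cenpv (a centromere protein), Rpp25 (a subunit of RNase P and MRP), Tle5 (a Groucho-related corepressor), the retinoic acid receptor Rarg, Pml (the scaffold of nuclear bodies) and the nuclear receptor coactivator Ncoa3. Over all 17 genes of transcription and chromatin the fall ranged from 1.501 to 4.75 and the rise from 1.501 to 5.29. All 17 were called in the fall and 13 in the rise. The roles were grouped after the members were known, so these counts only describe them.

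Of the members, 4 are known from germ cells or oocytes. In Mael and Ddx4 the day 14 samples were far apart. Mael, a protein of the pathway that silences transposons in germ cells, had 7.99 and 8.44 at day 0, 4.63 and 4.59 at day 7, and 7.51 and 8.62 at day 14. Ddx4, the RNA helicase Vasa, had 8.12 and 8.40 at day 0, 5.22 and 4.91 at day 7, and 7.11 and 8.87 at day 14. In both genes day 14 replicate 2 was above the day 0 samples and replicate 1 below them. The gap of 1.76 for Ddx4 is the largest between day 14 samples of any member, and its rise was not called (adjusted p = 0.0628), while that of Mael was. Sohlh2, a helix-loop-helix factor of germ cell differentiation, had 8.35 and 8.31 at day 0, 5.68 and 5.65 at day 7, and 7.57 and 7.45 at day 14. Ooep, a protein of the maternal complex of the oocyte, had 10.57 and 10.32 at day 0, 7.13 and 7.18 at day 7, and 9.63 and 9.53 at day 14. Both day 14 samples of either gene lay below both day 0 samples.

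Ligands of the early embryo are among the 7 secreted factors and receptors. Nodal, the TGF-beta family ligand that patterns the embryo and upholds the primed pluripotent state, had 9.20 and 9.28 at day 0, 7.59 and 7.56 at day 7, and 9.26 and 9.40 at day 14. Fgf4, the growth factor through which ES cells prime themselves for differentiation, had 11.82 and 11.71 at day 0, 9.11 and 9.11 at day 7, and 11.25 and 11.16 at day 14. The day 14 samples of Nodal overlapped those of day 0, while both of Fgf4 were below (day 14 minus day 0 of -0.56). Both steps were called for both genes.

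The other secreted proteins and receptors are Igfbp7 (an insulin-like growth factor binding protein), Ltbp4 (which stores latent TGF-beta in the matrix), the guidance cue Ntn1, the ephrin receptor Epha2 and the glucagon-like peptide receptor Glp1r. Over the 7 genes the fall ranged from 1.67 to 2.69 and the rise from 1.55 to 3.23. Epha2 came close to its start at day 14. It had 9.43 and 9.31 at day 0, 7.56 and 7.43 at day 7, and 9.11 and 9.13 at day 14. Both of its day 14 samples were below both day 0 samples. A second cluster of Epha2 did not meet the rule. All 7 were called in the fall and 6 in the rise, the exception being Ntn1.

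Inside the cell, 14 members transmit or damp signals. Gng3, a gamma subunit of G proteins, had the deepest drop of them, with 10.30 and 10.52 at day 0, 6.59 and 7.02 at day 7, and 9.62 and 9.82 at day 14. Porcn, the enzyme that lipidates Wnt ligands so that they can be secreted, had 8.93 and 9.04 at day 0, 7.21 and 6.55 at day 7, and 8.81 and 8.76 at day 14. Its day 14 samples came to just under those of day 0. Spry4, a feedback inhibitor of growth factor signalling, had 11.59 and 11.88 at day 0, 9.25 and 9.27 at day 7, and 10.72 and 11.20 at day 14. Inpp5d, the lipid phosphatase SHIP1, had 10.04 and 10.08 at day 0, 7.34 and 7.77 at day 7, and 9.50 and 9.93 at day 14. Both steps of these 4 genes were called, and both day 14 samples of each were below both day 0 samples.

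Deptor, an inhibitor of the kinase mTOR, had 9.41 and 9.62 at day 0, 7.21 and 6.37 at day 7, and 8.47 and 8.82 at day 14. Castor1, the arginine sensor upstream of mTORC1, had 9.54 and 9.65 at day 0, 7.03 and 7.13 at day 7, and 8.71 and 8.79 at day 14. Both steps of both genes were called, and both ended below day 0 in either sample (day 14 minus day 0 of -0.87 and -0.85). Plk3, a polo-like kinase of the stress response, had 8.39 and 9.11 at day 0, 6.22 and 6.54 at day 7, and 8.52 and 9.79 at day 14, with 1.27 between the day 14 samples. The others are Ndrg2, described below, the TGF-beta inhibitor Pmepa1, the phosphoinositide-binding adaptor Dapp1, Cnpy1, Rinl, Dennd2c and Mcf2. All 14 were called in the fall and 12 in the rise, without Pmepa1 and Dapp1.

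There are 10 members that are proteins of the cell surface or cytoskeleton. Jam2, a junctional adhesion molecule, had 11.35 and 11.52 at day 0, 7.16 and 7.80 at day 7, and 10.38 and 11.11 at day 14. Its fall of 3.95 ± 0.33 was a 15.5-fold loss of signal. Cobl, which nucleates actin filaments, had 10.88 and 11.05 at day 0, 7.60 and 7.83 at day 7, and 10.03 and 10.29 at day 14. Alpl, the tissue-nonspecific alkaline phosphatase whose activity marks ES cells, had 10.66 and 10.74 at day 0, 8.99 and 8.84 at day 7, and 10.87 and 11.02 at day 14, and was one of 7 members with both day 14 samples above both day 0 samples.

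Pecam1 is known as an adhesion molecule of endothelium, but is also present on mouse ES cells. It had 8.75 and 8.86 at day 0, 7.38 and 7.06 at day 7, and 8.41 and 9.29 at day 14. Other endothelial genes ran the other way: Cdh5, the endothelial cadherin, had 5.07 and 5.33 at day 0, 9.41 and 10.26 at day 7, and 6.64 and 6.58 at day 14, and Kdr, a VEGF receptor, had 5.0 and 5.13 at day 0, 7.91 and 8.82 at day 7, and 5.56 and 5.49 at day 14. The median of the 22 measured genes of the endothelium list was 5.96 and 5.80 at day 0, 7.18 and 8.29 at day 7, and 5.89 and 5.93 at day 14. Pecam1 is the only member on that list, on which limma called 10 genes higher and 1 lower at day 7. Of all 14847 genes, 1004 were called higher and 1054 lower.

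Folr1, a folate receptor, met the rule although its day 7 samples were 2.29 apart, with 9.71 and 9.67 at day 0, 9.16 and 6.87 at day 7, and 9.55 and 10.23 at day 14. Neither step was called (adjusted p = 0.224 and 0.266), and only day 7 replicate 2 was clearly low. The remaining surface and cytoskeletal members are Gpa33, a glycoprotein of intestinal epithelium with 10.09 and 10.03 at day 0, 6.61 and 6.66 at day 7, and 9.26 and 9.14 at day 14, the tetraspanin Cd37, Susd2 and the neuronal intermediate filaments Ina and Nefh. Over the 10 genes, 9 were called in the fall and 7 in the rise. The fall ranged from 1.59 to 3.95.

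Of 17 enzymes and metabolic proteins, Gsta3, a glutathione transferase, dropped the furthest. It had 7.78 and 8.56 at day 0, 4.33 and 4.50 at day 7, and 7.31 and 7.62 at day 14, and both day 14 samples were below both day 0 samples. Pla2g5, a secreted phospholipase, had 8.82 and 8.55 at day 0, 5.94 and 5.60 at day 7, and 9.02 and 8.80 at day 14, and so overlapped the day 0 range at day 14. Nqo1, a quinone reductase of the oxidative stress response, had 8.19 and 8.54 at day 0, 6.46 and 5.97 at day 7, and 7.64 and 8.28 at day 14. Bdh1, the mitochondrial enzyme that interconverts ketone bodies, had 8.23 and 8.26 at day 0, 6.62 and 6.38 at day 7, and 8.32 and 8.07 at day 14, and its day 14 samples spanned those of day 0.

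Upp1, which cleaves uridine, had 10.99 and 10.57 at day 0, 7.10 and 8.90 at day 7, and 9.80 and 9.92 at day 14. Its day 7 samples were 1.80 apart, and its rise was not called (adjusted p = 0.176). The other metabolic genes are Bcat1 (branched-chain aminotransferase), Pipox (which breaks down pipecolate and sarcosine), creatine kinase Ckb, the reductase Cbr3, Dhdh, Nmnat2 (which makes NAD in axons), Coq8a (of coenzyme Q synthesis), the lysosomal mannosidase Manba, the phospholipase Pla2g10, Enpp4, Them6 and Chchd10, a mitochondrial protein of the intermembrane space. Chchd10, one of the genes with the octamer, had 11.44 and 11.42 at day 0, 9.49 and 8.81 at day 7, and 11.69 and 11.38 at day 14. All 17 were called in the fall and all but Upp1 in the rise, with falls between 1.60 and 3.75.

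Transport proteins include 6 solute carriers, of 329 measured genes with that symbol (1.82%, where 0.626% of all genes are members). They are Slc7a3 (cationic amino acids), Slc7a7 (the light chain of a transporter of cationic and neutral amino acids), Slc25a12 (the mitochondrial carrier of aspartate and glutamate), Slc47a1 (export of organic cations), Slc5a11 (inositol) and Slc9b1 (a sodium/proton exchanger of sperm). Slc7a3 had 10.95 and 11.15 at day 0, 8.15 and 8.73 at day 7, and 10.45 and 10.39 at day 14. Slc9b1 had 7.86 and 8.72 at day 0, 5.55 and 5.88 at day 7, and 6.78 and 7.80 at day 14, which makes it the member furthest below day 0 at day 14, with a difference of -0.999 and 1.02 between its day 14 samples. Clca3b, of a family named for chloride channels, had 8.46 and 10.04 at day 0, 5.66 and 6.0 at day 7, and 8.27 and 8.97 at day 14, and its day 0 samples were 1.58 apart. The last of the 8 genes, the synaptotagmin Syt9, is a sensor for secretion. All 8 were called in the fall and 5 in the rise.

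Mkrn1, a ubiquitin ligase, Uchl1, a deubiquitinating enzyme, and Derl3, a protein of the degradation pathway of the endoplasmic reticulum, act in protein turnover. Uchl1 had 9.49 and 9.70 at day 0, 6.86 and 8.54 at day 7, and 9.47 and 9.34 at day 14. Its day 7 samples were 1.68 apart, replicate 1 being the lower, and neither step was called (adjusted p = 0.0855 and 0.178). Mkrn1 had 9.97 and 10.06 at day 0, 7.15 and 7.29 at day 7, and 9.38 and 9.92 at day 14, and Mkrn1 and Derl3 were called in both steps.

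A further 13 members have a role outside these groups or one not given here. Lrrc2, a leucine-rich repeat protein, had 9.24 and 9.46 at day 0, 4.64 and 5.35 at day 7, and 8.27 and 8.50 at day 14, the second largest fall of all at 4.35 ± 0.28. The gene 2410137M14Rik, known by its clone name, had 8.14 and 8.43 at day 0, 4.76 and 4.84 at day 7, and 7.90 and 8.24 at day 14, and its day 14 samples overlap those of day 0. Ttc39b had 9.06 and 9.33 at day 0, 5.91 and 5.85 at day 7, and 8.08 and 8.48 at day 14. A second cluster of Ttc39b missed the rule only by its return, with a day 14 minus day 0 of -1.10. Enox1 had 8.28 and 8.83 at day 0, 6.16 and 6.17 at day 7, and 7.59 and 7.76 at day 14. The others are Fam178b, Plekhb1, Ankrd45, Anxa11 (an annexin), Gca (grancalcin, a calcium-binding protein), Ccdc3, Fam81a, Pdzd4 and Mreg (melanoregulin). All 13 were called in both steps.

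**Figure D3:**
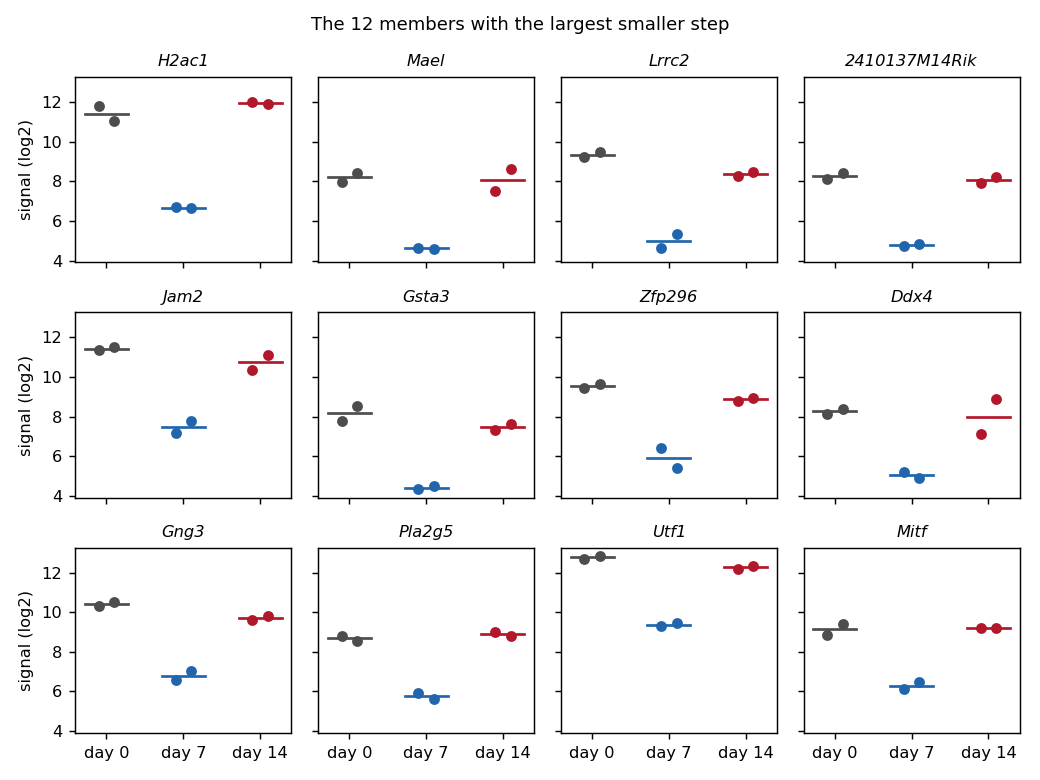
Gene-level log2 signal of the 12 members for which the smaller of both steps was largest. Points are the 2 samples of a stage and lines their means. In each panel both day 7 points lie below all others, and the day 14 points of Mael and Ddx4 are 1.11 and 1.76 apart.

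How far the genes came back differed. The day 14 mean was below the day 0 mean in 73 members and above it in 20, with a median difference of -0.41. Both day 14 samples were below both day 0 samples in 55 members, as in 24.1% of all clusters, and above them in 7, as in 21.9% of all clusters. In the other 31 the stages overlapped. The rule admits a shortfall of up to 1 and sets no upper bound, so nothing is read from these shares.

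Ndrg2, a stress-responsive gene of the NDRG family, went furthest above the start, with 10.52 and 9.90 at day 0, 8.32 and 8.40 at day 7, and 12.06 and 11.65 at day 14. Derl3 had 7.99 and 8.35 at day 0, 6.51 and 6.54 at day 7, and 9.23 and 10.21 at day 14. Igfbp7 had 8.15 and 8.37 at day 0, 6.31 and 6.67 at day 7, and 9.56 and 9.88 at day 14. In these genes, as in Slc7a7 with 9.89 and 10.31 at day 0, 7.78 and 8.30 at day 7, and 11.60 and 11.30 at day 14, both day 14 samples were above both of day 0. They are the only members more than 1 above day 0 on the mean, with 1.64, 1.55, 1.46 and 1.35.

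The limma fit called Igfbp7 (adjusted p = 0.0328) and Ndrg2 (adjusted p = 0.0421) higher at day 14 than at day 0, where 2.63% of all clusters were called higher and 0.686% lower. No member was called lower. At an unadjusted p under 0.05, limma had 28 members lower, against 7.98% of all clusters, and 4 higher, against 9.4%. The rule limits this difference on the lower side only, so nothing is read from these counts. With only the day 0 and day 14 samples, or with any 1 of the 6 samples left out, no member was called higher, and with quantile normalization or centred samples 1 was. Why was not tested. H2ac1 and Gca follow in the order, with 0.55 and 0.42. Gca had 8.66 and 9.12 at day 0, 6.93 and 7.19 at day 7, and 9.04 and 9.59 at day 14, and so overlapped its day 0 range. At the other end, Slc9b1, Lrrc2, Upp1, Ttc39b, Enox1 and Deptor were between -0.999 and -0.87 from day 0.

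**Figure D4:**
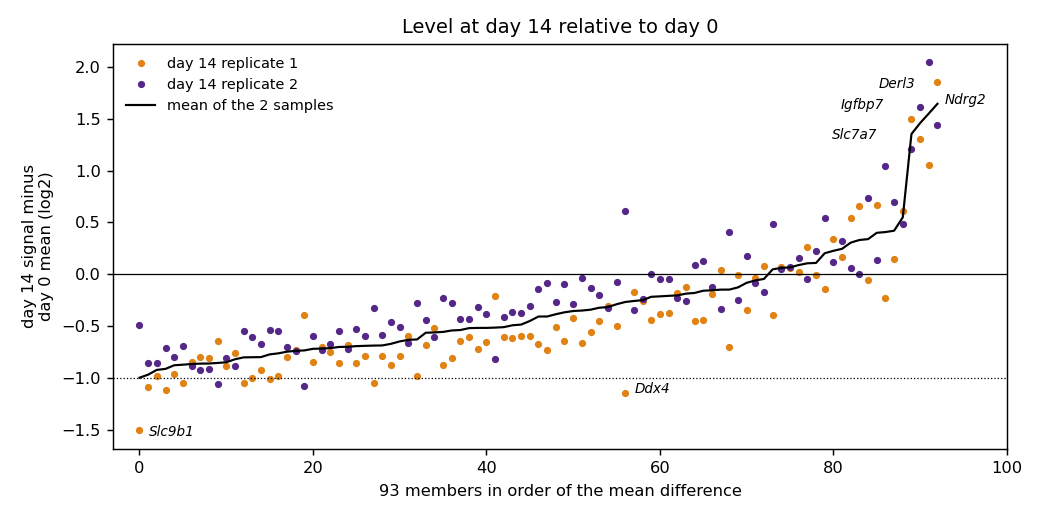
Level of each of the 93 members at day 14 relative to its day 0 mean (log2 difference), in the order of the mean difference. Orange and violet points are the day 14 samples and the black line their mean. The line lies below 0 for 73 genes and above 1 for Ndrg2, Derl3, Igfbp7 and Slc7a7, and the dotted line at -1 is the limit of the rule.

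Within stages, most members were higher in replicate 2 at day 0 (74 of 93, median difference 0.222) and at day 14 (64 of 93, median 0.23), but not at day 7 (49 of 93, median 0.0205). The 5192 rows with a day 0 mean of 8 or more were alike: their medians were 0.171 (76.5% higher), 0.194 (75.2% higher) and 0.0518 (58.1% higher). When each sample was centred on its median, the differences of the members were 0.0695 at day 0 and 0.0189 at day 14. Set instead against the median difference of all rows with 1 symbol, they were 0.178 and 0.197, so their size depends on the scaling. A few genes stood apart from this. The day 14 samples differed by over 1 in Ddx4, Plk3, Mael and Slc9b1, with replicate 2 the higher in each. Derl3 (0.98) and Pecam1 (0.87) came next, again with replicate 2 the higher. At day 7 Upp1, Uchl1 and Folr1 differed by over 1, Folr1 in the opposite direction to the others.

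Gene lists give the surroundings of the members. They were drawn up with results of these data known, so their direction is not independent evidence. Of all 14847 genes, 0.626% are members. At day 7 limma called 1054 of the 14847 lower and 1004 higher. At day 14 against day 7 it called 431 higher and 191 lower. In the lists, fell and rose mean called by limma. The rule asks for a day 0 mean of at least 8, which 5163 of the 14847 genes reached. Lists of genes high at day 0 can therefore hold more members, and nothing is read from the counts or shares of any list. Of 36 measured genes known from ES cells other than the left-out genes, 8 are members (22.2%). They are Cobl, Fgf4, Foxd3, Jam2, Mybl2, Ooep, Upp1 and Utf1. Of the 36, limma called 20 lower and 2 higher at day 7, and 6 higher and 1 lower at day 14 against day 7. The list's median change was -1.19 and then 0.58, where the medians of all 14847 genes were -0.07 and 0.05. Of 48 measured germ cell and meiosis genes, 3 are members (6.25%), namely Ddx4, Mael and Sohlh2. In this list 19 fell and 2 rose at day 7, and 8 rose and none fell after it, with medians of -0.61 and 0.40.

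Of 50 Polycomb and other chromatin regulators, 8 fell and 3 rose at day 7, and 3 rose after it (medians -0.41 and 0.03). Of 38 genes of heat shock, oxidative stress and metal binding, which hold Gsta3 and Nqo1, 7 fell and 3 rose, and 4 rose after it (medians -0.33 and 0.54). The signalling lists hold 1 member each: Inpp5d of 27 genes of LIF and STAT3 signalling, Nodal of 26 of the TGF-beta family, Porcn of 34 of Wnt, and Spry4 of 30 of FGF and ERK. At day 7, LIF and STAT3 genes had 7 lower and 3 higher, the TGF-beta family 1 lower and 7 higher, Wnt 3 lower and 5 higher, and FGF and ERK 4 in each direction. Nodal was thus the only called fall among the 26 measured genes of its list. Gdf3, Tdgf1 and Lefty1, genes of the same signalling that the rule leaves out, also fell on the stage means, by 3.27, 2.82 and 1.57. The list therefore does not show that Nodal fell alone in its pathway. Upp1 is the only member of 28 nucleotide genes and Bdh1 of 26 of fatty acid oxidation. Jam2 also stands on the list of epithelial junctions, in which 12 of 44 genes rose and 4 fell at day 7. No member was on the lists of glycolysis, respiration, DNA methylation, DNA repair or the cell cycle. These lists hold 21 to 49 measured genes, and only 0.626% of all genes are members, so nothing is read from this absence. The rule also leaves out Dnmt3l, which met its numbers.

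The genes that the rule leaves out are not bound by its limit on the return, so their return cannot be set against that of the members. Over these 22 genes the median fall was 3.08, the median rise 2.21 and the median of day 14 minus day 0 -0.76. Of them 20 had a fall of 1.5 or more and 15 a rise of 1.5 or more, and 9 stayed 1 or more below day 0. Pou5f1, the core factor of pluripotency, had 11.87 and 11.96 at day 0, 8.37 and 8.36 at day 7, and 11.05 and 11.18 at day 14. Nanog had 12.60 and 12.83 at day 0, 10.30 and 10.22 at day 7, and 12.16 and 12.34 at day 14. Klf4 had 9.83 and 9.65 at day 0, 7.30 and 6.93 at day 7, and 8.06 and 8.62 at day 14. The 10 that would have met the numbers of the rule are Pou5f1, Nanog, Nr0b1, Dnmt3l, Dppa2, Dppa4, Gdf3, Tdgf1, Lefty1 and Cpt1a. Beside them, 36 genes had a fall of 1.5 or more and a rise under 0.5.

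The steps of genes just inside and just outside the rule lay close together. Just inside stand Tle5 with 11.08 and 11.24 at day 0, 9.52 and 9.80 at day 7, and 11.82 and 11.16 at day 14, and Ncoa3 with 10.84 and 11.26 at day 0, 9.58 and 9.07 at day 7, and 10.60 and 11.05 at day 14. The smaller steps of these genes were 1.501 and 1.501, and those of Nmnat2 and Mreg, which follow, were 1.506 and 1.509. Nmnat2 had 8.11 and 8.36 at day 0, 5.91 and 6.10 at day 7, and 7.39 and 7.64 at day 14. Mreg had 10.07 and 10.10 at day 0, 8.76 and 8.40 at day 7, and 10.03 and 10.82 at day 14. Nmnat2 stayed below its day 0 samples at day 14, while Mreg overlapped them. Just outside stand Cnnm2 with 9.76 and 9.75 at day 0, 8.03 and 8.19 at day 7, and 9.34 and 9.84 at day 14, and Adam23 with 10.87 and 10.88 at day 0, 8.43 and 8.45 at day 7, and 9.85 and 9.98 at day 14. The smaller steps of Cnnm2, Adam23, Aplp1 and Nphs1 were 1.484, 1.480, 1.477 and 1.473. Aplp1 had 8.89 and 9.03 at day 0, 6.78 and 6.22 at day 7, and 7.92 and 8.03 at day 14. Nphs1 had 8.29 and 8.19 at day 0, 6.03 and 6.15 at day 7, and 7.51 and 7.61 at day 14. All 4 of these genes had the shape of the members and missed the rule by the rise to day 14. With steps of at least 1 in place of 1.5 the rule finds 190 genes, and with 2 it finds 38.

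The genes outside the group whose 6 values ran most like the mean profile of the members were Daxx, Jarid2, L3mbtl2, Napepld and Atmin (Pearson's r over the 6 samples from 0.994 to 0.997, as a description). Their steps were smaller. Jarid2, a subunit of Polycomb repressive complex 2, had 11.36 and 11.48 at day 0, 9.72 and 9.80 at day 7, and 10.99 and 11.31 at day 14. Daxx, a histone chaperone, had 9.16 and 9.27 at day 0, 8.22 and 8.19 at day 7, and 9.0 and 9.05 at day 14. L3mbtl2, a Polycomb-related repressor, had 9.52 and 9.79 at day 0, 8.21 and 8.31 at day 7, and 9.44 and 9.62 at day 14. These 3 are chromatin proteins. Napepld, an enzyme that makes endocannabinoid-like lipids, had 9.09 and 9.28 at day 0, 7.73 and 7.73 at day 7, and 9.10 and 9.04 at day 14. Atmin, a factor of the DNA damage response, had 9.87 and 9.90 at day 0, 8.91 and 8.93 at day 7, and 9.61 and 9.74 at day 14. All 5 likeness values come from the same arrays and 3 stages, which many genes share.

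Along the chromosomes, some members lie close together, and no number to expect was worked out. Chromosome 7 holds 12 of the 93 (12.9%, against 8.22% of all genes with 1 symbol). In the order of protein-coding genes of GRCm38.p6, Gpa33 and Mael are direct neighbours, Derl3 and Chchd10 have Smarcb1 and Mmp11 between them, and Slc9b1 and Manba have Cisd2 and Ube2d3. Lrrc2 is next to Tdgf1, a left-out gene that met the numbers of the rule. Of 124 genes next to a member, 7 (5.65%) had both steps of 1 or more on the stage means, as had 257 (1.74%) of the 14732 genes, these included, that are neither members nor left out. These 7 are Apod, Camk1d, Dnah8, Dppa5a, H2bc1, Islr2 and Tex2. Dppa5a, an ES cell gene beside Ooep, had 6.93 and 7.24 at day 0, 4.94 and 2.94 at day 7, and 6.78 and 7.09 at day 14.

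The exon-level table summarises the same arrays by probe set, so it is not independent. It describes how much of each gene's probe sets shared the drop. It holds 1192 probe sets for 92 members, between 1 and 44 per gene with a median of 12. Clca3b has none by symbol. In 1089 of the 1192 (91.4%) both day 7 samples lay below all others, against 15.8% of all named probe sets. In 1017 (85.3%) both steps were 1 or more, against 3.61% of all. The rule chose the members by the gene-level summary of these arrays, so nothing is read from the contrast with all probe sets. All probe sets lay below in 43 members, and no gene had fewer below than not below. For Utf1 this was 4 of 4 probe sets, for Jam2 15 of 15, for Mitf 12 of 12 and for Pecam1 16 of 18. Taken over a gene's probe sets, the median had both steps of 1 or more in all 92 members and of 1.5 or more in 84.

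Exon usage was taken as each probe set's log2 signal less the median over its gene in that sample. This was meant to take out the gene's own level, on which the rule was based, but may not do so in full. No probe set of a member was called between any pair of stages (limma, a difference of at least 1 with an adjusted p under 0.05). Between day 0 and day 7, 479 probe sets in 38 members were high enough to test. The lowest adjusted p was 0.0874, for a probe set of Ooep that was higher by 2.66 ± 0.21 relative to its gene at day 7. Over all genes, 2 of 93159 probe sets were called (0.00215%). From day 7 to day 14 none of 479 was called in members (lowest adjusted p 0.216) and none of 98363 in all (0.0%).

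From day 0 to day 14, where more members are high in both stages, none of 1044 probe sets in 82 members was called (lowest adjusted p 0.176) and none of 96658 in all (0.0%). At an unadjusted p under 0.05 stood 109 member probe sets from day 0 to day 7 (22.8%, against 7.82% of all tested), 101 from day 7 to day 14 (21.1% against 4.52%) and 59 from day 0 to day 14 (5.65% against 5.38%). The larger shares were in the comparisons in which the level of these genes differs most, and the part of the level in them was not tested. Without the filter on low levels, 4 probe sets of Ltbp4, Rinl and Slc47a1 were called between day 0 and day 7, of 112 called over all genes. With a trended and robust prior, tried after seeing the data, 5 of the 52 probe sets called were in members (Cobl, Jam2, Manba, Phc1 and Slc25a12).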

How the data were processed

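The authors deposited log2 signals. The submitters' processing notes name RMA and Affymetrix Power Tools, with versions not given in the sources used here. As the labels state, the core definitions of the array on mm9 were used, and the tables hold 23332 transcript clusters and 229581 exon-level probe sets. RMA corrects background and summarises probes, and a log2 array signal has a floor, so differences from low levels may be understated. The tables hold no detection calls. Precision is limited by the number of arrays, 6.

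Symbols came from the platform annotation, updated through a RefSeq gene table of GRCm38.p6. Of the clusters, 14996 carried 1 symbol, 1019 several and 7317 none, and 27 were updated. Rows without a single symbol were tested but not named. Coordinates on mm9 were not used here.

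Tests on levels used R 4.3.3 and limma 3.58.1 (lmFit, then eBayes; 2-sided; Benjamini-Hochberg over all clusters; called under 0.05), with all 6 samples in 1 fit, so every contrast of a gene has the same SE. Exon usage needed 4 or more probe sets, a gene median of at least 7.256 (the 50th percentile of exon-level values) in both stages and a probe set mean of at least 5.37 (the 25th percentile) in 1 or both. Probe sets with identical usage in both samples of any stage were left out, since their spread would be 0. The scripts were tested on simulated data. Alternatives were quantile normalization, median centring, other thresholds of the rule, only the stages compared, a replicate block and leaving out each sample. A trended, robust prior for exon usage was added after seeing the data.

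The members, the gene lists and the role groups were chosen with earlier results of these data known. Values in every sample were to be given for the 12 members with the largest smaller step, the 6 highest and 6 lowest at day 14 against day 0, the 6 with the largest day 14 sample difference, the 4 just inside and 4 just outside the step threshold, every member on a gene list, members with a called usage probe set, and the 5 most alike other genes. Genes named beyond this were chosen after their values were seen.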

Additional observations from a re-analysis of the deposited data

How the results depend on the processing

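The smaller step of the 93 genes ranged from 1.45 to 4.84 under quantile normalization and median centring (186 values) and from 0.533 to 5.11 with a sample left out (558 values). The rule puts both day 7 samples below all others, so leaving out a sample could reverse no step. The number of genes the rule finds was 91 with quantile normalization (87 shared), 88 with centred samples (84 shared), 115 with a day 0 minimum of 6, 98 from exon-level medians (75 shared), 190 with steps of 1, 38 with steps of 2, 50 with a shortfall under 0.5, and 74 to 115 with a sample left out (74 to 90 shared). Of all clusters, limma called 2481 at day 7 against day 0 (634 to 1770 with a sample left out), 730 at day 14 against day 7 (310 with only those stages, 126 to 310 with a sample left out) and 774 at day 14 against day 0 (155 to 545). Centring moved the share called higher at day 7 from 50.3% to 41.7% and at day 14 against day 0 from 79.3% to 64.9%, and the median change of all clusters at day 7 from -0.0229 to -0.113. With a sample left out, 59 to 89 members were called lower at day 7 and 20 to 53 higher at day 14 against day 7. Members called higher at day 14 against day 0, 2 here, were 1 with quantile normalization or centring, 0 with only those stages or any sample left out, and 4 over clusters at or above the median level. The cause of these moves was not tested, though leaving out samples also leaves fewer degrees of freedom. Exon usage at day 7 against day 0 called 2 probe sets here, 0 with the mean as baseline, 0 with any sample left out, 112 without the filter on low levels (4 in members, of Ltbp4, Rinl and Slc47a1) and 52 with a trended and robust prior, added after seeing the data (5 in members, of Cobl, Jam2, Manba, Phc1 and Slc25a12). At day 14 against day 0 it called 0 here, 233 without the filter and 10 with that prior, none in members. Replicate numbers are shared between stages, but only 2 numbers exist and nothing says that a number marks a shared culture. Deviations of same-numbered samples correlated at 0.0826, 0.486 and 0.0913. With a replicate block, 2840, 639 and 682 clusters were called in the order above, 90 members were called lower at day 7, 71 higher at day 14 against day 7 and 2 against day 0, and 0 probe sets for usage at day 7 against day 0.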

Other observations

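Rows that are not named also show the profile. Of 1019 gene-level rows with several symbols 2 met the numbers of the rule, and of 7317 rows with no symbol 3 did. The mirror image of the rule (day 7 at least 8 and at least 1.5 above both other stages, with both day 7 samples above all others and day 14 less than 1 above day 0) was met by 80 genes. The genes Stmn2, Trap1a, Triml1, Tdrd12 and Rnf125 had both steps over 1.5, but a day 14 minus day 0 between -1.22 and -1.05. Apod, the neighbour of Bdh1, had 9.78 and 9.91 at day 0, 6.11 and 6.44 at day 7, and 7.71 and 7.69 at day 14. Its rise of 1.42 and its return both missed the rule.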
